A study of Mus musculus with 4 samples.

Results

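The genes described here carry the names of proteasome subunits, and include assembly chaperones and tissue-restricted core genes described below. They are the 36 of 27933 listed genes whose symbol is Psma, Psmb, Psmc or Psmd followed by a number, leaving out the 3 immunoproteasome genes Psmb8, Psmb9 and Psmb10. Of these, 16 belong to the core particle (8 Psma and 8 Psmb genes) and 20 carry the names of the regulatory particle (6 Psmc and 14 Psmd genes). RNA-seq was measured in FACS-sorted mouse melanocyte stem cells, which renew the pigment cells of the hair follicle. The control group (n = 2) received saline and the stressed group (n = 2) received RTX, which the labels give by this abbreviation alone, and cells of both groups were taken 12 h after injection. Strain, age and genotype are not given in the sources used here, nor whether the libraries of a group came from separate animals, so p-values reflect library-to-library spread that may be technical.

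The proteasome is the protease that degrades most short-lived and damaged proteins of the cell once they carry a ubiquitin chain. Its core is a barrel of stacked alpha and beta rings with the active sites facing inwards, and the regulatory particle caps the barrel, where it binds the ubiquitin chain, removes it, and unfolds and feeds in the protein with a ring of ATPases. Cells tend to make the subunits in concert, and when the protease is overloaded or inhibited the transcription factor NRF1, encoded by Nfe2l1, is known to raise the subunit genes through antioxidant response elements.

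To show what such an element looks like in these genes, the 250 bases before the RefSeq start site (build GRCm38.p6, the assembly of mm10) were searched on both strands. Of the 36 members, 29 matched an entry of the promoter table, with 31 windows. The core of the element, TGACNNNGC, was found in 5 of these windows, or 16.1%, against 10.2% of the 32851 windows of all genes. It lay before Psmb5, Psmb6, Psmc6, Psmd9 and Psmd12. The windows of the 3 of these genes that are described individually are printed 5′ to 3′ on the gene's strand, with the element in capitals. They lie at chr14:54617996-54618245 on the minus strand for Psmb5, chr11:70525107-70525356 on the plus strand for Psmb6 and chr5:123227940-123228189 on the plus strand for Psmd9.
Psmb5: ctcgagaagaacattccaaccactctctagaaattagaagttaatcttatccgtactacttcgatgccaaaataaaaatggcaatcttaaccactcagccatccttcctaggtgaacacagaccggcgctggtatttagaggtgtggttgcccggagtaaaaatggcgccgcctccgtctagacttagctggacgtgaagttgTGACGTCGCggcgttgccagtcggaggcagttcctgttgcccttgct
Psmb6: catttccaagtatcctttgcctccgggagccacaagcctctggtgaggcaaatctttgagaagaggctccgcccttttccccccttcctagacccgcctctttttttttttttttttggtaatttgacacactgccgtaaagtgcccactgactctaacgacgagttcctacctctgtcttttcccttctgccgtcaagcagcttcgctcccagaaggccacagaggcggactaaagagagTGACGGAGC
Psmd9: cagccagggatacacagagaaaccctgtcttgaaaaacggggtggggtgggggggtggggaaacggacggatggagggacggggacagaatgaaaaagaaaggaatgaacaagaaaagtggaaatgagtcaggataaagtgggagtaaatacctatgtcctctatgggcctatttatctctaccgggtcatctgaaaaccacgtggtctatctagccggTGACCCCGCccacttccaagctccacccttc
The element ends just before the start site in Psmb6. In Psmb5 and Psmd9 it begins 47 and 31 bases before the site (-47 and -31). For 27 of the 31 member windows the 20 bases after the site lay in a GENCODE M21 transcript of the gene. The Psmb6 window was not among these, and the files open that gene at 70525367. The Psmd9 window lies inside the span the files give for that gene, which opens further upstream. The other motifs searched were the heat shock element core GAANNTTC, in 1 member window (Psmb5) or 3.23% against 6.69% of all windows, and the CCAAT box CCAAT, in 12 member windows or 38.7% against 33.8%. The interferon gamma activated site TTCNNNGAA was in 0 of the 31 member windows against 7.02% of all windows, and the interferon stimulated response element, GAAA and GAAA with 2 free bases between them, was in 3, or 9.68%, against 2.98%. A match is a run of letters and not a measured binding site.

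The libraries held 9273652 to 11854280 counts in genes, and 13348 genes entered the test. Of the 12 melanocyte markers examined none was at 0, and their summed level was 25669 and 24591 CPM (counts for each 1000000 counts of the library) in control replicates 1 and 2 and 47208 and 44714 CPM in stressed replicates 1 and 2. The 17 keratinocyte markers summed to 32007 and 19691 CPM in the controls and 13086 and 11134 CPM in the stressed libraries. The 8 fibroblast markers summed to between 6.25 and 26.7 CPM with Lum at 0 in every library, and the 7 endothelial markers to between 2.79 and 3.39 CPM with Cdh5 and Cldn5 at 0. The 6 Schwann and neural markers summed to between 794 and 1099 CPM. The 10 immune markers in the files summed to 9.17 and 41.8 CPM in the controls and 6.49 and 8.11 CPM in the stressed libraries. Single markers did not all follow the sums. Of the melanocyte markers, Mitf (control 455 and 291 CPM, stressed 453 and 403 CPM), Sox10 and Ednrb overlapped between the groups. The others were higher in both stressed libraries. Of the keratinocyte markers, Cdh3 (control 756 and 1159 CPM, stressed 981 and 1170 CPM), Dsg3, Sfn and Lgals7 overlapped. The others were lower in both stressed libraries. In such a sorted population, fewer cells of a type and less RNA per cell cannot be told apart. The controls were the less alike pair: the chi-square over genes, divided by its degrees of freedom, was 54.0 for them and 18.0 for the stressed pair.

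Proteasome subunit RNA was not shown to differ between stressed and control cells. The groups also differed in their melanocyte and keratinocyte marker sums, given above, and the part of this in the member values was not tested. Of the 36 members 35 passed the filter on low counts, and 0 were called by edgeR's quasi-likelihood test at a Benjamini-Hochberg adjusted p below 0.05, where the share called among all tested genes was also 0%. The smallest adjusted p of a member was 0.58, and 0 members had an unadjusted p below 0.05, which 12.8% of all tested genes had. DESeq2 also called 0 members, with a smallest adjusted p of 0.636, while it called 1.73% of all tested genes higher and 2.67% lower, or 4.4% in all. With limma-voom 0 members were called, against 0% of all tested genes, and again 0 had an unadjusted p below 0.05. The fitted log2 fold changes, stressed over control, had a median of 0.026 over the members, with 19 above 0 and 16 below, beside a median of -0.0091 over all tested genes, of which 49.1% were above 0 and 50.9% below.

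The differences were also small in size. The median absolute log2 fold change was 0.10 for the members and 0.29 for all tested genes, which had lower levels, with a median of 34.4 CPM against 145 CPM for the members. For 34 of the 35 tested members the 95% interval of the fold change lay within 2-fold in either direction, as it did for 49.6% of all tested genes. For 18 members it lay within 1.5-fold. The exception to the 2-fold bound was Psma8, with counts of 10 to 48. The intervals of the members, which are not adjusted for the number of genes, had a median half-width of 0.46 log2 units. Smaller changes in a typical subunit could not be told from 0 with 2 libraries a group. Larger changes could also go uncalled at the adjusted p used. EdgeR called 0 of the 13348 tested genes, of which 12.2% had an absolute log2 fold change above 1.

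**Figure D1:**
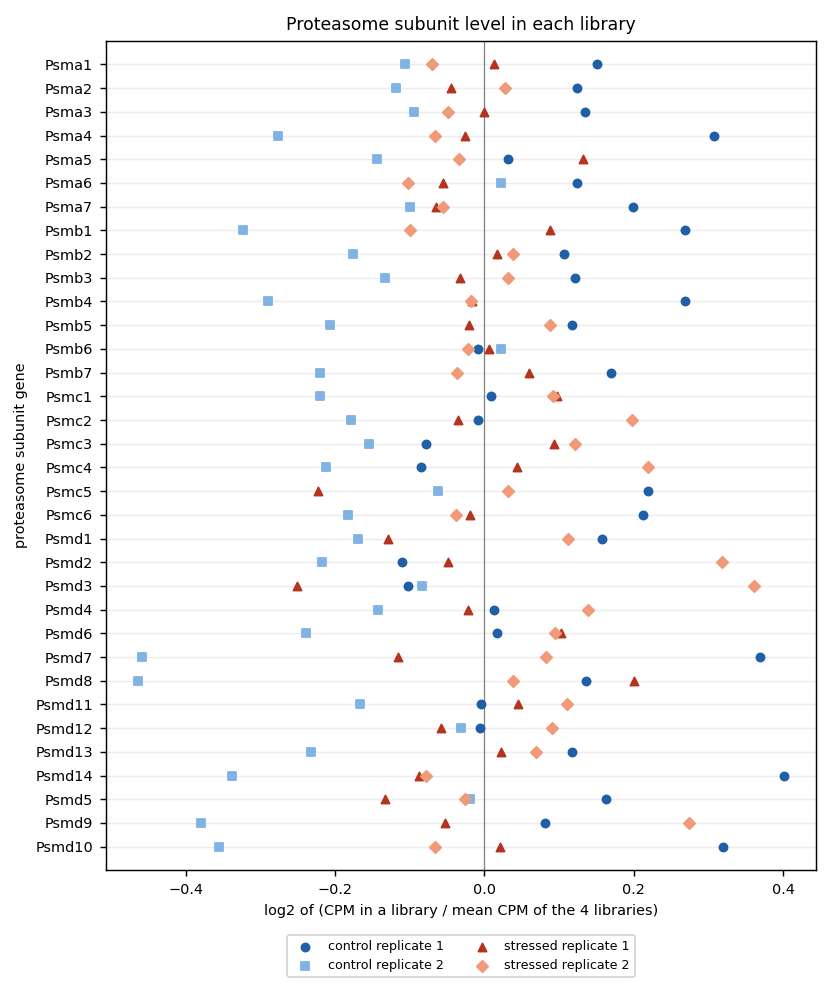
Level of each of the 34 members with a mean of at least 10 CPM in the 4 libraries, as the log2 ratio to the member's own mean (x axis), 1 row a gene and 1 marker a library. Control replicate 2 (light squares) sits at the low end of most rows and control replicate 1 (dark circles) towards the high end, with the stressed libraries between or beside them.

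**Figure D2:**
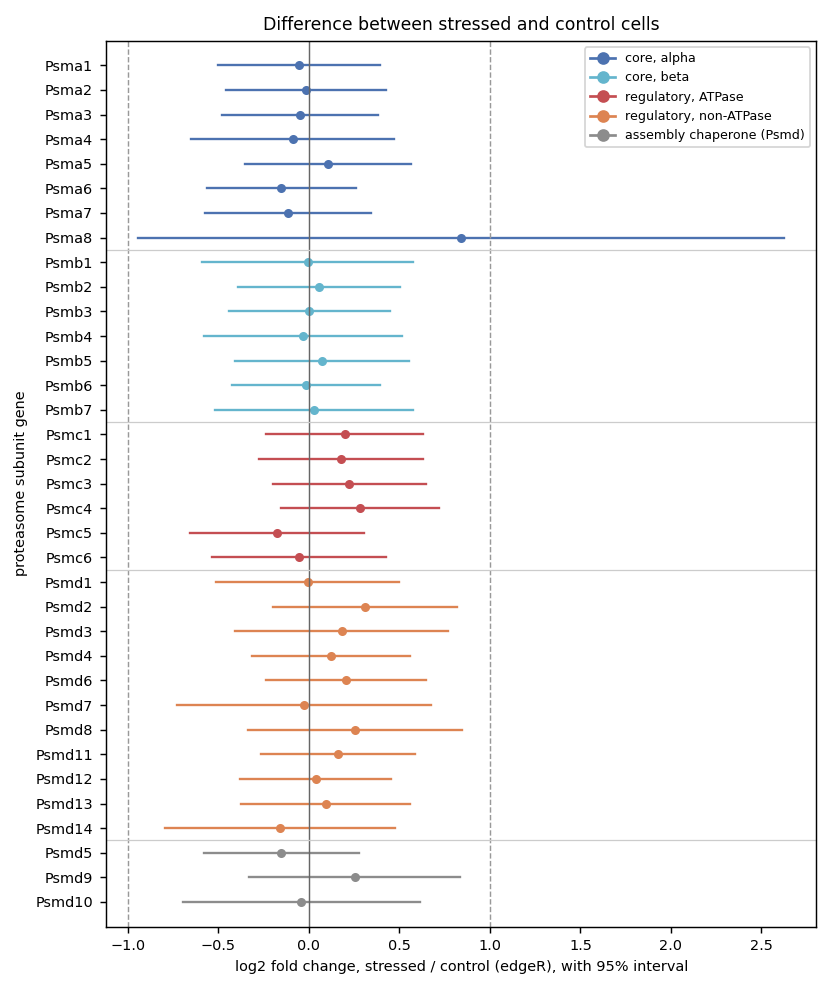
Fitted log2 fold change, stressed over control (x axis), with its 95% interval for the 35 tested members, coloured by role, with dashed lines at 2-fold. All points but that of Psma8 lie between -0.17 and 0.31, and every interval crosses 0.

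The catalytic subunits of the core did not differ detectably. Psmb5 (chromosome 14, 54614120-54617995, mm10), which carries the chymotrypsin-like activity, measured 66.6 and 53.2 CPM in the controls (replicates 1 and 2, in that order here and below) and 60.5 and 65.3 CPM in the stressed libraries. The stressed values lay between the control values, and the log2 fold change was 0.07 with an SE of 0.20. Psmb6 (chromosome 11, 70525367-70527858), which carries the caspase-like activity, varied least between libraries of all tested members, at 172 and 176 CPM in the controls and 174 and 170 CPM in the stressed libraries. Its highest and lowest libraries differed by 1.03-fold, and its log2 fold change of -0.015 had a 95% interval from -0.42 to 0.39. Psmb7 (chromosome 2, 38588036-38644087), the trypsin-like subunit, measured 49.8 and 38.0 CPM in the controls and 46.2 and 43.2 CPM in the stressed libraries, again with the stressed values inside the control range. Its exons share 405 bp with those of Nek6 on the opposite strand, and reads there cannot be assigned to either gene without strand information. The other standard beta subunits, Psmb1, Psmb2, Psmb3 and Psmb4, which form the ring beside the active sites, had log2 fold changes between -0.032 and 0.056.

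The alpha subunits, which form the outer rings and the gate of the barrel, gave small differences, most of them below 0. Of the 8 alpha genes 6 had a fitted value below 0, and the median was -0.053. Psma6 (chromosome 12, 55384222-55418454) measured 151 and 141 CPM in the controls and 133 and 129 CPM in the stressed libraries. It was the only core member whose groups did not overlap, with a log2 fold change of -0.15 (SE 0.17, edgeR adjusted p = 0.776). Psma7 (chromosome 2, 180036373-180042433) stood at 219 and 178 CPM in the controls and 182 and 184 CPM in the stressed libraries, within the control range. Psma4 (chromosome 9, 54950790-54958030) was likewise within that range, at 119 and 79.4 CPM in the controls and 94.4 and 91.8 CPM in the stressed libraries. Leaving out control replicate 1 moved the log2 fold change of Psma4 from -0.09 to 0.24, and leaving out control replicate 2 moved it to -0.35. For Psma7 the value of -0.12 moved to 0.052 and -0.26. Psma4 shares 114 bp of exon with AY074887 on the opposite strand.

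Both tissue-restricted core genes had few counts. Psmb11, the beta subunit of the thymus proteasome, had 2 counts in control replicate 2 and 0 in the other 3 libraries, where a count of 0 allows up to 3, and it did not enter the test. Psma8, the alpha subunit of the testis proteasome, had counts of 10 and 33 in control and 28 and 48 in stressed libraries. Its log2 fold change of 0.84 had a 95% interval from -0.94 to 2.63, and its groups overlapped.

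Among the regulatory particle genes more values lay above 0 than below. Of the 20 members 13 were above 0, the median log2 fold change was 0.14, and in 6 of them both stressed libraries lay above both controls. Such separation upwards was found in 21.8% of all tested genes, and in 17.1% of the 35 tested members and 30% of the 20 regulatory ones. Separation downwards was found in 22.9% of all tested genes and in 2 members, Psma6 and Psmd5, and separation in either direction in 44.7% of all tested genes. The ring of ATPases, Psmc1 to Psmc6, unfolds the substrate and had a median of 0.19. Psmc4 (chromosome 7, 28041707-28050101) stood at 170 and 155 CPM in the controls and 185 and 209 CPM in the stressed libraries. The groups did not overlap, and the log2 fold change was 0.28 (SE 0.18, edgeR adjusted p = 0.58). Psmc3 (chromosome 2, 91054009-91066369) measured 232 and 220 CPM in the controls and 261 and 266 CPM in the stressed libraries, also without overlap, with a log2 fold change of 0.22 (SE 0.17). It shares 215 bp of exon with Slc39a13 on the opposite strand. Psmc5 (chromosome 11, 106256154-106263120) had the lowest fitted value of all members, -0.17 with an SE of 0.20, from 185 and 153 CPM in the controls and 136 and 163 CPM in the stressed libraries, which overlapped.

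The non-ATPase subunits form the base scaffold and the lid and hold the ubiquitin receptors. Psmd2 (chromosome 16, 20651652-20663414), a scaffold subunit that docks proteins delivering ubiquitinated substrates, had the highest fitted value of the members at or above 10 CPM. It stood at 366 and 340 CPM in the controls and 382 and 493 CPM in the stressed libraries. The log2 fold change was 0.31 with an SE of 0.21 (edgeR adjusted p = 0.608), and it ranged from 0.12, with stressed replicate 2 left out, to 0.48, with stressed replicate 1 left out. Psmd8 (chromosome 7, 29174188-29180701), a lid subunit, measured 279 and 184 CPM in the controls and 292 and 261 CPM in the stressed libraries. These groups overlapped, and the log2 fold change of 0.26 went to 0.60 if control replicate 1 was left out and to -0.011 if control replicate 2 was. Psmd6 (chromosome 14, 14112184-14120984), also of the lid, measured 146 and 122 CPM in the controls and 155 and 154 CPM in the stressed libraries, without overlap. Its log2 fold change of 0.20 (SE 0.18) dropped to 0.084 when control replicate 2 was left out and reached 0.35 when control replicate 1 was.

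Psmd14 (chromosome 2, 61711694-61800376), the metalloprotease that removes the ubiquitin chain, stood at 129 and 77.3 CPM in the controls and 91.9 and 92.5 CPM in the stressed libraries. The stressed pair lay inside the control range, and the log2 fold change of -0.16 (SE 0.26) turned to 0.27 with control replicate 1 left out and reached -0.48 with control replicate 2 left out. Psmd7, its partner in the lid, had the widest spread of the members at or above 10 CPM, 1.77-fold between its highest and lowest libraries, which were control replicates 1 and 2. Psmd4, a ubiquitin receptor, and Psmd1, the other large scaffold subunit, had log2 fold changes of 0.12 and -0.0066. Psmd1 shares 301 bp of exon with Gm21972 on the same strand and 252 bp with Htr2b on the opposite strand.

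Psmd5, Psmd9 and Psmd10 carry subunit names but are chaperones that help assemble the ATPase ring and leave the finished particle. They did not share a direction. Psmd9 (chromosome 5, 123169413-123250131) measured 58.0 and 42.1 CPM in the controls and 52.9 and 66.3 CPM in the stressed libraries, with a log2 fold change of 0.25 (SE 0.24). Leaving out control replicate 2 gave 0.043, and leaving out control replicate 1 gave 0.51. It shares 1849 bp of exon with Gm26745 on the opposite strand. Psmd5 (chromosome 2, 34849734-34874968) measured 89.9 and 79.2 CPM in the controls and 73.2 and 78.8 CPM in the stressed libraries. Its stressed libraries lay just below the controls, at a log2 fold change of -0.15 (SE 0.18), which moved to -0.047 and -0.24 when control replicate 1 or 2 was left out. Psmd10, known as gankyrin, was at -0.042.

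Compared per exon length, the subunits spanned a wide range of levels that was alike in both groups. Levels of the 34 members with a mean of at least 10 CPM ran from 6.90 CPM per kb in Psmd9 to 165 CPM per kb in Psma2 in the controls, and from 8.22 to 164 CPM per kb in the same genes in stressed cells. The coefficient of variation between members was 60.0% in control and 58.5% in stressed cells. The core members had a median of 66.7 CPM per kb in control and 65.9 CPM per kb in stressed cells, and the regulatory members 53.0 and 59.2 CPM per kb. The exon length is the union of all annotated exons of a gene, so a gene with long or rarely used exons reads low on this scale. Among the catalytic subunits, Psmb6 was at 92.9 CPM per kb, Psmb5 at 68.8 and Psmb7 at 12.8 in the controls.

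**Figure D3:**
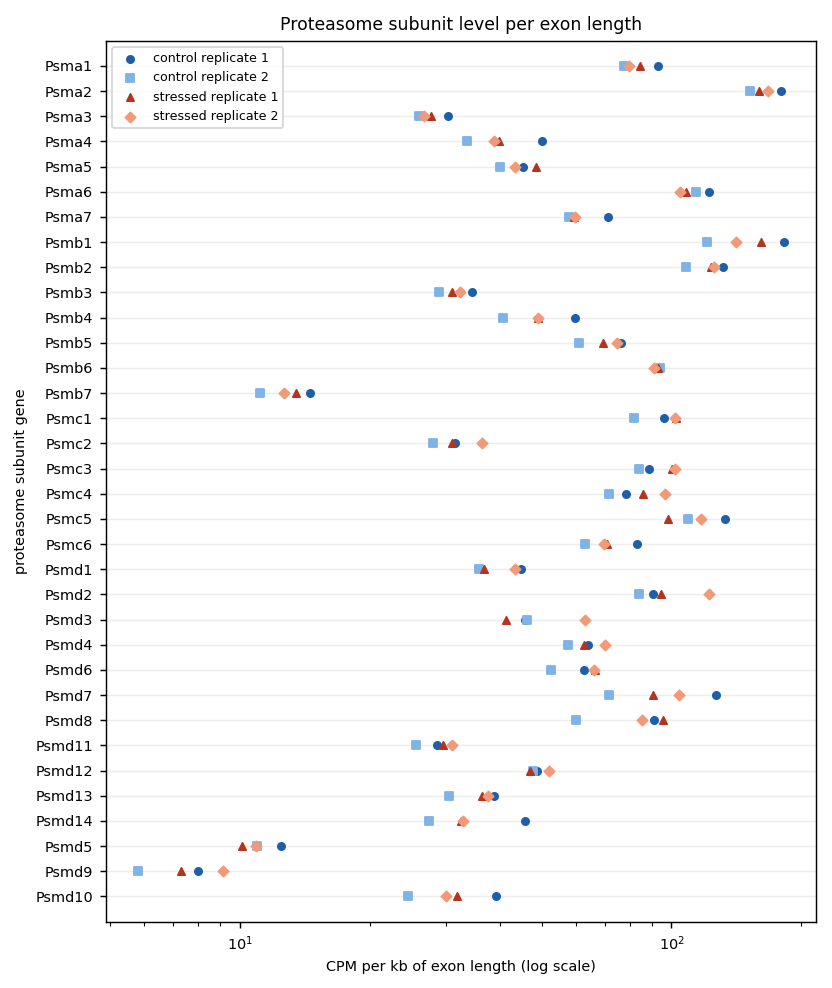
Level of each of the 34 members with a mean of at least 10 CPM per kb of exon length (x axis, log scale), 1 marker a library. The spread between genes, from 6.90 to 165 CPM per kb in the control means, is far wider than the spread between the 4 libraries of any gene.

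Summed over all 36 members, proteasome RNA made up 5427 and 4443 CPM in control replicates 1 and 2 and 5016 and 5321 CPM in stressed replicates 1 and 2, so both stressed libraries lay inside the control range. The control group averaged 4935 ± 696 CPM (SD, n = 2) and the stressed group 5169 ± 215 CPM (SD, n = 2), a ratio of 1.05. Leaving out control replicate 1 gave a ratio of 1.16, and leaving out control replicate 2 gave 0.952. The core sum was 1877 and 1523 CPM in the controls and 1680 and 1627 CPM in the stressed libraries. The regulatory sum was 3550 and 2920 CPM in the controls and 3336 and 3694 CPM in the stressed libraries. Within a library, where scaling plays no part, the regulatory reads for each core read numbered 1.89 and 1.92 in control and 1.99 and 2.27 in stressed replicates 1 and 2. Those 4 ratios did not overlap between the groups, but the stressed libraries differed from each other by more than stressed replicate 1 differed from either control.

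The control libraries differed from each other across most members. Control replicate 1 lay above control replicate 2 in 32 of the 35 tested members, as it did in 49.7% of all tested genes, with a median log2 difference of 0.26. Control replicate 1 also had the higher keratinocyte marker sum, given above. It had the lower sum over the 13 mitochondrially encoded mRNAs in the files, 9058 CPM against 20660 CPM. Of these mRNAs mt-Co2, mt-Co3, mt-Atp6 and mt-Atp8 were at 0 in every library. Both stressed libraries had a mitochondrial sum below both controls, at 4793 and 4052 CPM. The part of either marker sum in the member values was not tested. The stressed pair differed less in the core, where stressed replicate 2 was higher in 6 of 15 tested members, than among the regulatory members, where it was higher in 15 of 20, beside 50% of all tested genes. Psmd3, a lid subunit, was at 205 and 313 CPM in stressed replicates 1 and 2, beside 227 and 230 CPM in the controls.

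These differences set how far the medians can be read. Without control replicate 1 the median of the core was 0.21 and that of the regulatory members 0.28, and 31 of the 35 tested members lay above 0. Without control replicate 2 the medians were -0.15 and 0.035, and 14 lay above 0. Leaving out stressed replicate 2 gave -0.0071 and 0.057, and leaving out stressed replicate 1 gave -0.025 and 0.19. In each of these fits 0 members were called by edgeR. Over all tested genes edgeR called 628 of 13890 with control replicate 1 left out, 739 of 13839 with control replicate 2 left out, and 0 with either stressed library left out.

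**Figure D4:**
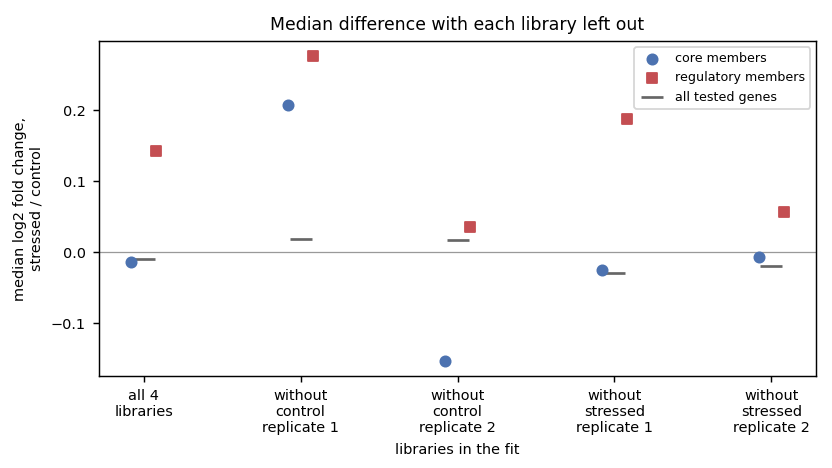
Median log2 fold change, stressed over control (y axis), of the core members (circles), the regulatory members (squares) and all tested genes (dashes) with all 4 libraries and with each left out. The core median lies at 0.21 without control replicate 1 and at -0.15 when the other control is left out. The regulatory median is above the core median in all 5 fits, which share libraries and are not independent of each other.

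Outside the 36 members, 43 further genes of the ubiquitin and proteasome system were examined, and all 43 were tested. By edgeR 0 were called, with 4 at an unadjusted p below 0.05, which 12.8% of all tested genes had. By limma-voom 0 were called, with 4 at an unadjusted p below 0.05, which 1700 of the 13348 tested genes had. DESeq2 called 1 higher (1.73% of all tested genes) and 2 lower (2.67%). The median log2 fold change of the 43 genes was 0.11, with 30 above 0 and 13 below, beside 49.1% of all tested genes above 0. The 5 activators and inhibitors (Psme1 to Psme4 and Psmf1), the 6 assembly factors, the 5 further genes of the regulatory particle and the 12 genes of shuttles and the p97 unfoldase each had 0 DESeq2 calls. Fitted values were above 0 in 4 of the 5 activators and inhibitors, 5 of the 6 assembly factors, 2 of the 5 regulatory genes and 7 of the 12 shuttle and p97 genes. They were above 0 in 2 of the 3 immunoproteasome genes, 4 of the 6 genes of transcription control and all 5 of the ubiquitin and E1 genes reported here. Pomp, the maturation factor of the core, measured 117 and 80.6 CPM in the controls and 89.5 and 98.5 CPM in the stressed libraries, inside the control range. Nfe2l1 measured 223 and 243 CPM in the controls and 212.5 and 254 CPM in the stressed libraries, with a log2 fold change of 0.0023 and a 95% interval from -0.46 to 0.46. Its sign turned under several alternatives.

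The DESeq2 calls of lower level in these lists were Psmb9 and Nfe2l3. Nfe2l3 (chromosome 6, 51432670-51458768), which encodes a relative of NRF1, fell by DESeq2 from 22.6 and 20.5 CPM to 9.01 and 8.00 CPM, with a log2 fold change of -1.33, an SE of 0.40 and a DESeq2 adjusted p of 0.0228 (edgeR adjusted p = 0.168).

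Psmb9 (chromosome 17, 34181988-34187764) replaces Psmb6 in the immunoproteasome, the form that cells assemble under interferon. It fell by DESeq2 from 29.4 and 41.9 CPM in the controls to 17.6 and 15.2 CPM in the stressed libraries, with a log2 fold change of -1.12, an SE of 0.36 and a DESeq2 adjusted p of 0.0419 (edgeR adjusted p = 0.218). Of the reads on Psmb6 and Psmb9 together, Psmb9 held 14.6% and 19.2% in control and 9.18% and 8.18% in stressed cells, with Psmb6 level as described above. Per kb of exon length the Psmb9 shares were 8.03% and 10.9% in control and 4.91% and 4.36% in stressed cells. Such shares overlapped between the groups for Psmb8 beside Psmb5 and for Psmb10 beside Psmb7. The other immunoproteasome subunits did not share this direction. Psmb8, which replaces Psmb5, measured 23.8 and 46.3 CPM in the controls and 34.6 and 40.9 CPM in the stressed libraries, within the control range. Psmb10, which replaces Psmb7, measured 19.8 and 27.7 CPM in the controls and 28.7 and 35.0 CPM in the stressed libraries, a log2 fold change of 0.42 (SE 0.28, edgeR adjusted p = 0.599) without overlap. The immune marker sum was highest in control replicate 2 and the keratinocyte sum in control replicate 1, as given above. Cd74 alone held 35.2 of the 41.8 CPM of the immune sum in control replicate 2. The part of the immune and keratinocyte sums in the Psmb9 difference was not tested.

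With 1 library left out, the DESeq2 calls of Psmb9 and Nfe2l3 were lost in all 4 fits. By edgeR, Psmb9 fell with control replicate 1 left out (adjusted p = 0.0140) and had an adjusted p of 0.150 to 0.924 in the other 3 fits, and Nfe2l3 had 0.0588 to 0.871 in the 4 fits. With no filter beyond 1 count, edgeR called both lower, with an adjusted p of 0.0328 for Psmb9 and 0.0263 for Nfe2l3. The DESeq2 adjusted p of Psmb9 was 0.0644 when control replicate 1 was left out and 0.455 when control replicate 2 was, and with stressed replicate 1 or 2 left out it was 0.543 or 0.9997. For Nfe2l3 the values in this order were 0.369, 0.178, 0.546 and 0.9997. The log2 fold changes kept their sign in every fit, between -1.35 and -0.84 for Psmb9 and between -1.42 and -1.25 for Nfe2l3. With 1 library left in a group, the spread came from the other group and was taken to hold for both.

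**Figure D5:**
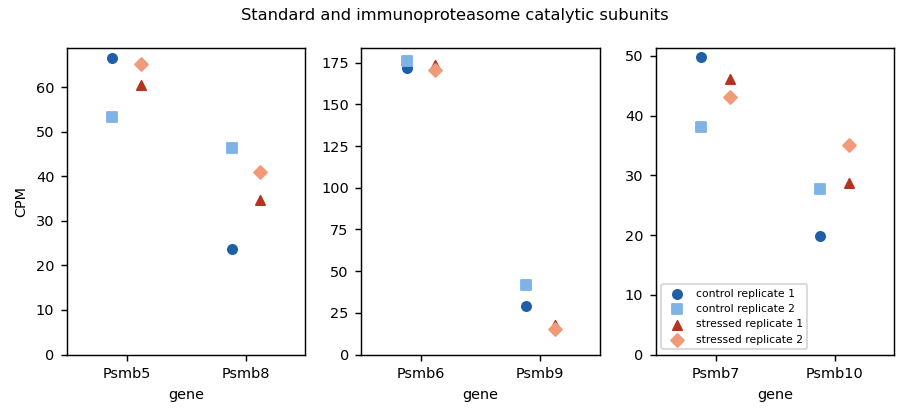
Level in CPM (y axis, from 0) of the 3 catalytic subunits of the standard core, each beside the immunoproteasome subunit that replaces it, with 1 marker a library. Psmb6 stays between 170 and 176 CPM, while Psmb9 lies at 29.4 and 41.9 CPM in the controls and 17.6 and 15.2 CPM in the stressed libraries.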

How the data were processed

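The authors deposited whole-number read counts per gene, made with featureCounts 1.6.1 per the file headers, on exons summed by gene name, with a minimum mapping quality of 30 and no strand or paired-end option. STAR 2.5.3, Trim Galore 0.4.1 and DESeq2 1.22.2 are named, with the build mm10, in the submitters' processing notes. Libraries were prepared with Smart-Seq V4, per the labels. The alignment names of stressed replicates 1 and 2 hold the numbers 2 and 3, per the file headers. The treatment text in the labels names RTX for every sample, while the treatment characteristic gives saline for the controls, and groups follow the titles.

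R 4.3.3 was used throughout. The filter was filterByExpr with its minimum count of 10, libraries were scaled by TMM, and all 13348 genes were fitted with edgeR 4.0.16 (quasi-likelihood F-test, two-sided, group as the only term), which was tested on simulated data. Each SE was derived from the size of the log2 fold change and the F statistic, and the 95% interval uses the t distribution with 6.36 degrees of freedom. CPM of single genes uses TMM-scaled totals, while sums use all counts of a library. Floors cover counting error only. DESeq2 1.42.0 and limma 3.58.1 (voom) were alternatives, with other scalings and filters, a replicate block and each library left out. Chosen after seeing the data was DESeq2 with each library left out.

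Members described individually were Psmb5, Psmb6 and Psmb7, the 6 largest fitted values in each direction at a mean of at least 10 CPM, any called member and those at or under 3 counts. Pathway genes were those called, with Nfe2l1, Pomp and the immunoproteasome genes. The 1 pathway gene that DESeq2 called higher is not reported here. Psma8, Psmd3, Psmd7 and the others named with single values were chosen after their values were seen. The members and lists were chosen with earlier results of these data known. Of 47 listed pathway symbols 43 were in the files. The deposited exon lengths in bp were used for levels per kb.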

Additional observations from a re-analysis of the deposited data

How the results depend on the processing

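In every alternative 0 proteasome members were called, by edgeR, DESeq2 or limma-voom. The number of all genes called was 0 by edgeR, and it was 760 with no filter beyond 1 count and 587 by the DESeq2 Wald test. With 1 library left out it ranged from 0 to 739 by edgeR and from 44 to 800 by DESeq2 (477 and 800 with control replicate 1 or 2 left out, 142 and 44 with stressed replicate 1 or 2 left out). Leaving out 1 library, the median of all members ranged from -0.079 to 0.24, that of the core from -0.15 to 0.21 and that of the regulatory members from 0.035 to 0.28, and the summed ratio from 0.952 to 1.16. With the other scalings, filters and tools the median of all members lay between 0.0055 and 0.035. The replicate numbers are shared between the groups, but the labels do not say that they mark a shared animal or day. With the replicate number as a block, edgeR called 0 genes and 0 members, and the median was 0.035. The deviations of same-numbered libraries correlated at 0.17 across genes.

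Of 22 named genes 10 turned sign with 1 library left out: Psmb5 (-0.079 to 0.25), Psmb6 (-0.025 to 0.0082), Psmb7 (-0.15 to 0.24), Psmd8 (-0.011 to 0.60), Psmd14 (-0.48 to 0.27), Psma7 (-0.26 to 0.052), Psma4 (-0.35 to 0.24), Psmb8 (-0.28 to 0.67), Pomp (-0.31 to 0.23) and Nfe2l1 (-0.12 to 0.13). Nfe2l1 also turned with upper-quartile scaling (-0.0094), with at least 5 CPM in 2 libraries (-0.0047), with limma-voom (-0.0018) and with the replicate block (-0.0021). The causes were not tested.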
